A study of Rattus norvegicus with 11 samples.

Results

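The 5 genes described here encode antioxidant enzymes, taken by their Ensembl rat gene IDs from a table of 32883 IDs. They are Sod1 (ENSRNOG00000002115), Sod2 (ENSRNOG00000019048), Cat (ENSRNOG00000008364), Hmox1 (ENSRNOG00000014117) and Nqo1 (ENSRNOG00000012772). They were chosen for what they encode, by a rule that uses no values, though with earlier results of these data known. The symbols were assigned to the IDs by the choice of members, since the annotation table used here matched 0 of the IDs to a symbol. All 5 genes had enough counts to be tested, among 14979 tested genes. Sod1, Sod2 and Cat were treated as constitutive enzymes and Hmox1 and Nqo1 as inducible ones. The measurements are RNA-seq read counts from cardiac tissue of Sprague Dawley rats in 11 libraries, each named here by the number in its label.

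The control group (libraries 115 and 95) was labelled with no treatment. The isoproterenol group (79, 98 and 119) received the beta-adrenergic agonist isoproterenol, which is given to rodents to injure the heart, at 5 mg/kg daily over 10 days. The canagliflozin group (78, 133 and 143) had that course and also canagliflozin, a drug that blocks glucose uptake by the kidney transporter SGLT2, at 3 mg/kg daily over 4 weeks. The exercise group (103, 113 and 57) had the isoproterenol course and exercise of 60 min a day over 4 weeks. The series title speaks of canagliflozin together with aerobic exercise, but the sample labels of the exercise group name no drug, so its differences may not be those of exercise alone. The labels give no ages and do not say whether each library is a different rat. A p-value here therefore sets a difference against library-to-library spread, which may be technical. The labelled tissue could not be checked against heart marker genes, because no marker could be matched to an ID.

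Superoxide, a by-product of mitochondrial respiration, is turned into hydrogen peroxide by superoxide dismutases. Sod1 encodes the copper-zinc form of the cytosol and Sod2 the manganese form of the mitochondrial matrix, and Cat encodes catalase, which breaks hydrogen peroxide down to water and oxygen, mainly in peroxisomes. Heart muscle is rich in mitochondria and depends on these enzymes. Hmox1 encodes haem oxygenase 1, which degrades haem, and Nqo1 encodes a quinone reductase. Both are textbook targets of the transcription factor NRF2, which binds antioxidant response elements in DNA when oxidants or electrophiles release it from KEAP1, and Hmox1 is also abundant in macrophages that clear red cells.

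The promoters of the members are shown so that the sequence before each start site can be set beside the levels. Over all 11 libraries Sod2 and Cat varied together while Sod1 did not follow them. In a subset of 7 libraries described below, Sod1 did vary with Sod2 (r = 0.945). Nqo1 is shown as the inducible gene for which a promoter was found, and it does not stand for Hmox1. RefSeq's promoter table (build GRCr8) matched 4 of the 5 symbols, all but Hmox1, and the 250 bases before the annotated start are printed in the direction of the gene. The windows are chr11:42942573-42942822 (+ strand) for Sod1, chr1:50050169-50050418 (- strand) for Sod2, chr3:110329527-110329776 (- strand) for Cat and chr19:52220268-52220517 (- strand) for Nqo1. Capitals mark matches, on either strand, to 5 motifs, which are the GC box with the letters GGGCGG, the CCAAT box, the TATA box with the letters TATAAA, the core of the antioxidant response element with the letters TGACNNNGC and the AP-1 site with the letters TGANTCA.
Sod1: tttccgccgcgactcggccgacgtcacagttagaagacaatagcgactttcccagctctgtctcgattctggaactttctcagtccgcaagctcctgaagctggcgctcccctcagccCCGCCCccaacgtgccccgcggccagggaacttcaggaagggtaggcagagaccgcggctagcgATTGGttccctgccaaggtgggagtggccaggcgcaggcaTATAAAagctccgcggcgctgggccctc
Sod2: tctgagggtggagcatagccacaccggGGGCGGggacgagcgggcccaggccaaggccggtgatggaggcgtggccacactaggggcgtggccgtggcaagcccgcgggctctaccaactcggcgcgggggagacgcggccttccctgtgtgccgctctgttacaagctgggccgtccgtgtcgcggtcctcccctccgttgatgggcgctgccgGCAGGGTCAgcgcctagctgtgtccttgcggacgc
Cat: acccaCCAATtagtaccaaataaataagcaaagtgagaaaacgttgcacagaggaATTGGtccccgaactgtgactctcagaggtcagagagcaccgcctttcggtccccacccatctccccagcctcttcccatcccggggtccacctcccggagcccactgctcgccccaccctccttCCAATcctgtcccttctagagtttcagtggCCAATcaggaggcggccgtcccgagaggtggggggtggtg
Nqo1: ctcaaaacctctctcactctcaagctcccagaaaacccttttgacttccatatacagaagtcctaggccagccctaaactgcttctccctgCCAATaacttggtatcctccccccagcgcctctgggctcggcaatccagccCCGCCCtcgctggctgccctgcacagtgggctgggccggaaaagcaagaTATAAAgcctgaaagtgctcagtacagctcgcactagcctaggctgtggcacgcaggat

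The windows of Sod2 and Cat shared none of the motifs searched. Cat held 4 CCAAT matches, a motif found in 34.0% of 33469 promoters of this length, and no GC box. Sod2 held a GC box (30.5% of promoters) and an antioxidant response element core on the reverse strand, 35 to 27 bases before the start (10.1% of promoters). Sod1 and Nqo1 each held a GC box, a CCAAT match and a TATA box, the last found in 12.9% of promoters. The window of Nqo1 held no TGACNNNGC match, which says only that these letters are not within 250 bases of the start, and no window held the AP-1 motif (6.34% of promoters). The matches did not overlap each other. The G and C content was 63.2% for Sod1, 71.6% for Sod2, 58.8% for Cat and 56.4% for Nqo1, against a median of 51.2% over all promoters. A match to a motif is a description of the letters and no evidence of binding.

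Total counts per library ranged from 14742164 to 25034831. On the first principal component of all tested genes, which held 56.2% of the variance, the libraries did not separate by group. Libraries 95, 98, 57 and 78 lay on one side of 0 and the other 7 on the opposite side, with 1 of the 4 in each group. Control library 95 lay farthest out, at a score of 204, followed by library 98 at 46.5. Libraries 57 (15.5) and 78 (8.28) lay nearest to 0, and the other 7 ran from -63.2 to -25.4. Libraries 95, 98, 57 and 78 are called below the 4 that stood apart, but 57 and 78 did so far less than 95. In library 95, 14692 genes were detected, where the other libraries had 16916 to 17703. It had a TMM normalisation factor of 0.568, against 0.910 to 1.23. All 4 libraries have label numbers below 100, as does isoproterenol library 79. What the numbers stand for is not given.

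Levels between genes were compared per length and within a library, in the authors' FPKM (reads scaled to gene model length and library total). Sod1 was the most abundant of the 5 transcripts and its FPKM exceeded that of Sod2 in 11 of 11 libraries, by 1.54-fold to 20.2-fold. Sod2 exceeded Cat in 11 of 11 libraries, by 1.02-fold in library 95 to 2.10-fold in library 115. Averaged over libraries, Sod1, Sod2 and Cat lay at percentiles 98.4, 96.0 and 94.2 of tested genes by FPKM. The inducible genes were lower, with Hmox1 at percentile 78.7 and Nqo1 at percentile 78.2. Their order relative to each other was not fixed, since Hmox1 exceeded Nqo1 in 4 libraries (95, 98, 143 and 57) and lay below it in 7. Hmox1 exceeded Cat in 1 library, isoproterenol library 98, where the ratio of Cat to Hmox1 was 0.923.

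**Figure D1:**
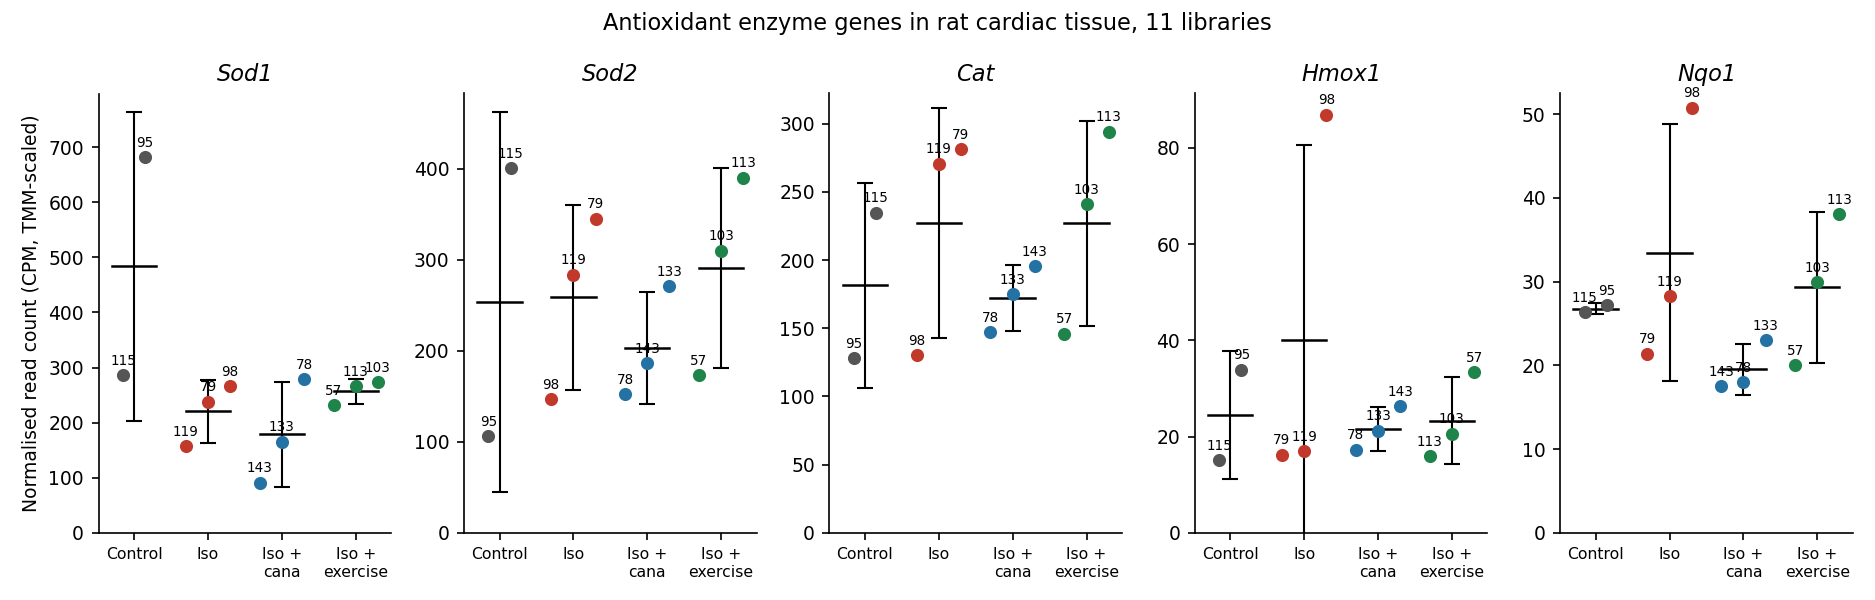
Normalised read count (CPM, TMM-scaled, linear axis from 0) of each gene by group, where a point is a library with its number, the bar is the mean and the whisker the SD (cut at 0 for Hmox1 with isoproterenol). Hmox1 and Nqo1 are highest in isoproterenol library 98 (86.9 and 50.8 CPM) and Sod1 is highest in control library 95 (682 CPM).

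Sod1, the cytosolic dismutase, was at 286 CPM (reads per 1000000 after TMM scaling of library sizes) in control library 115 and 682 CPM in control library 95. With isoproterenol it was at 238, 266 and 157 CPM in libraries 79, 98 and 119. In the canagliflozin group it was at 279, 165 and 91.2 CPM in libraries 78, 133 and 143. In the exercise group it was at 273, 266 and 231 CPM in libraries 103, 113 and 57. Both controls therefore lay above all 9 isoproterenol-treated libraries, but control 115 was close to the highest of them, canagliflozin library 78. On the authors' FPKM scale, which uses library totals alone, the control and isoproterenol groups overlapped, at 449 in control 115 and 478 in isoproterenol library 98. The canagliflozin and exercise groups still lay below control, but exercise libraries 113 and 103 only just, at 446 and 445.

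The group means of Sod1 were 484 ± 280 CPM (SD, n = 2) in control, 257 ± 22.5 (n = 3) in the exercise group, 221 ± 56.7 (n = 3) with isoproterenol and 179 ± 94.7 (n = 3) with canagliflozin. The exercise libraries were the closest together, with a highest value 1.18-fold the lowest. By that ratio the canagliflozin libraries were the farthest apart (3.06-fold), and by SD the controls, whose ratio was 2.39. Over all 11 libraries Sod1 spanned 7.47-fold, the widest range of the 5 genes. Its gene model is the shortest of the 5 at 656 bases, and its 3 lowest libraries, 119, 133 and 143, were also the 3 with the highest correlation between relative level and gene length over all tested genes (Spearman 0.161, 0.283 and 0.388, against -0.227 to 0.0137 in the others, across genes that are not independent). When each library's length trend was entered as an offset, the log2 fold change of Sod1 for canagliflozin against control went from -1.44 to -0.89.

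Sod2, the mitochondrial dismutase, was at 401 CPM in control library 115 and at 106 CPM in control library 95. With isoproterenol it was at 345, 147 and 284 CPM in libraries 79, 98 and 119. In the canagliflozin group it was at 152, 271 and 186 CPM in libraries 78, 133 and 143. In the exercise group it was at 310, 390 and 173 CPM in libraries 103, 113 and 57. The lowest value of each group came from one of the 4 libraries that stood apart over all genes, and these 4 (106 to 173 CPM) all lay below the other 7 (186 to 401 CPM), as in 11.1% of all tested genes (for 7.06% they all lay above). In library 95, where 33.3% of tested genes had their lowest level, the difference of Sod2 from its median was at percentile 24.6 of tested genes. The group means were 291 ± 110 CPM (SD, n = 3) for exercise, 259 ± 102 (n = 3) for isoproterenol, 253 ± 208 (n = 2) for control and 203 ± 61.1 (n = 3) for canagliflozin, so each neighbouring pair differed by less than its spread.

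Cat, which encodes catalase, was at 235 CPM in control library 115 and 128 CPM in control library 95. With isoproterenol it was at 281, 130 and 271 CPM in libraries 79, 98 and 119. In the canagliflozin group it was at 147, 175 and 195 CPM in libraries 78, 133 and 143. In the exercise group it was at 241, 294 and 146 CPM in libraries 103, 113 and 57. As for Sod2, libraries 95, 98, 78 and 57 (128 to 147 CPM) lay below the other 7 (175 to 294 CPM), a split found in 11.1% of all tested genes, and in library 95 its difference from the median was at percentile 36.8. The group means were 227 ± 84.5 CPM (SD, n = 3) for isoproterenol, 227 ± 75.1 (n = 3) for exercise, 181 ± 75.3 (n = 2) for control and 172 ± 24.3 (n = 3) for canagliflozin. Cat spanned 2.29-fold over the 11 libraries, the narrowest range of the 5 genes.

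**Figure D2:**
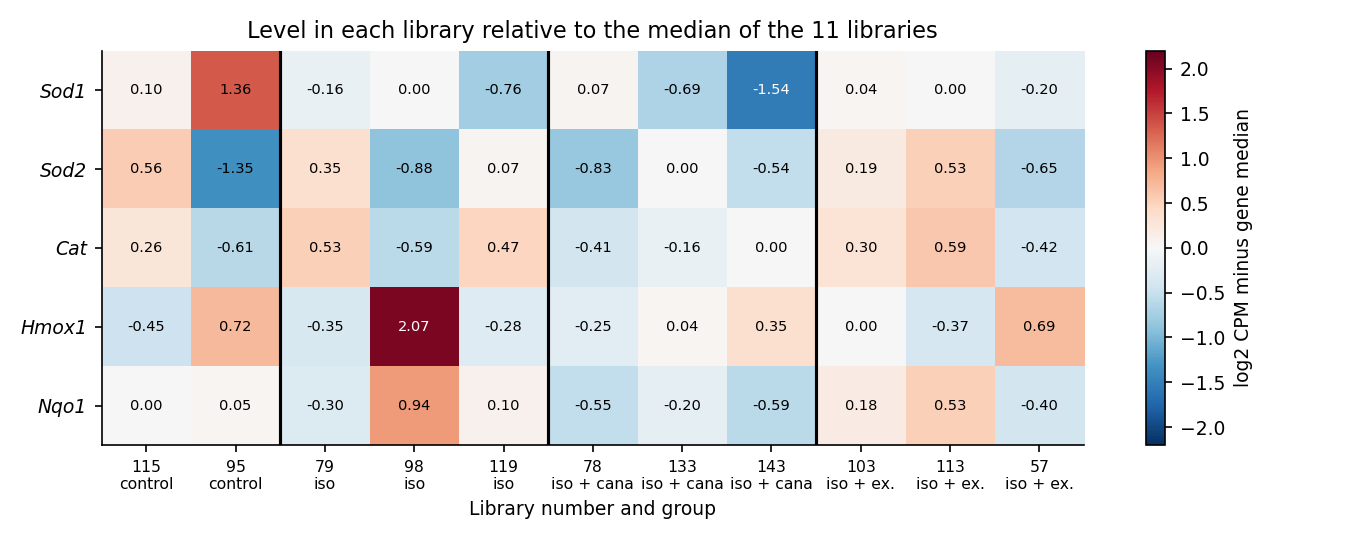
Difference in log2 CPM between each library and the gene's median over the 11 libraries (colour and printed value), with the 5 genes as rows and the libraries, grouped by treatment, as columns. Sod2 and Cat are low together in libraries 95, 98, 78 and 57, and Hmox1 and Nqo1 are high together in library 98 (2.07 and 0.94).

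Hmox1, the haem-degrading enzyme, was at 15.0 CPM in control library 115 and 33.9 CPM in control library 95. With isoproterenol it was at 16.2, 86.9 and 17.0 CPM in libraries 79, 98 and 119. In the canagliflozin group it was at 17.3, 21.2 and 26.3 CPM in libraries 78, 133 and 143. In the exercise group it was at 20.6, 15.9 and 33.4 CPM in libraries 103, 113 and 57. The isoproterenol mean of 40.0 ± 40.6 CPM (SD, n = 3), the highest of the 4 groups, thus rested on library 98, and the other 2 isoproterenol libraries lay near control library 115. The remaining group means were 24.5 ± 13.3 (n = 2) for control, 23.3 ± 9.03 (n = 3) for exercise and 21.6 ± 4.53 (n = 3) for canagliflozin. Raw counts of Hmox1 ran from 234 to 1839 per library, the highest in library 98, and differences as small as that between libraries 115 and 79 are within counting error.

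Nqo1, the quinone reductase, was at 26.3 and 27.2 CPM in control libraries 115 and 95, on this scale the closest agreement of any gene and group here. With isoproterenol it was at 21.4, 50.8 and 28.2 CPM in libraries 79, 98 and 119. In the canagliflozin group it was at 18.0, 23.0 and 17.5 CPM in libraries 78, 133 and 143. In the exercise group it was at 29.9, 38.1 and 20.0 CPM in libraries 103, 113 and 57. The 3 canagliflozin libraries lay below both controls, and their highest value overlapped the lowest isoproterenol library. The closeness of the controls rests on the TMM factor of library 95 (0.568). On the FPKM scale control libraries 115 and 95 were at 17.2 and 9.79, and the canagliflozin and control groups overlapped. The group means were 33.5 ± 15.4 CPM (SD, n = 3) for isoproterenol, 29.3 ± 9.05 (n = 3) for exercise, 26.8 ± 0.616 (n = 2) for control and 19.5 ± 3.03 (n = 3) for canagliflozin.

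Library 98 was the highest of all 11 for both inducible genes. Hmox1 lay 1.36 log2 units above the next library there, a gap larger than that of 99.8% of tested genes, and Nqo1 lay 0.41 log2 units above the next, larger than 96.6%. Of all tested genes, 12.7% were highest in this library. Sod2 and Cat were low there, with differences of -0.88 and -0.59 log2 units from their medians over the 11 libraries. In bulk tissue, a difference in the share of a cell type and a difference in RNA per cell cannot be told apart, and the part of macrophages or other cells in these levels was not tested, because no marker gene could be matched.

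**Figure D3:**
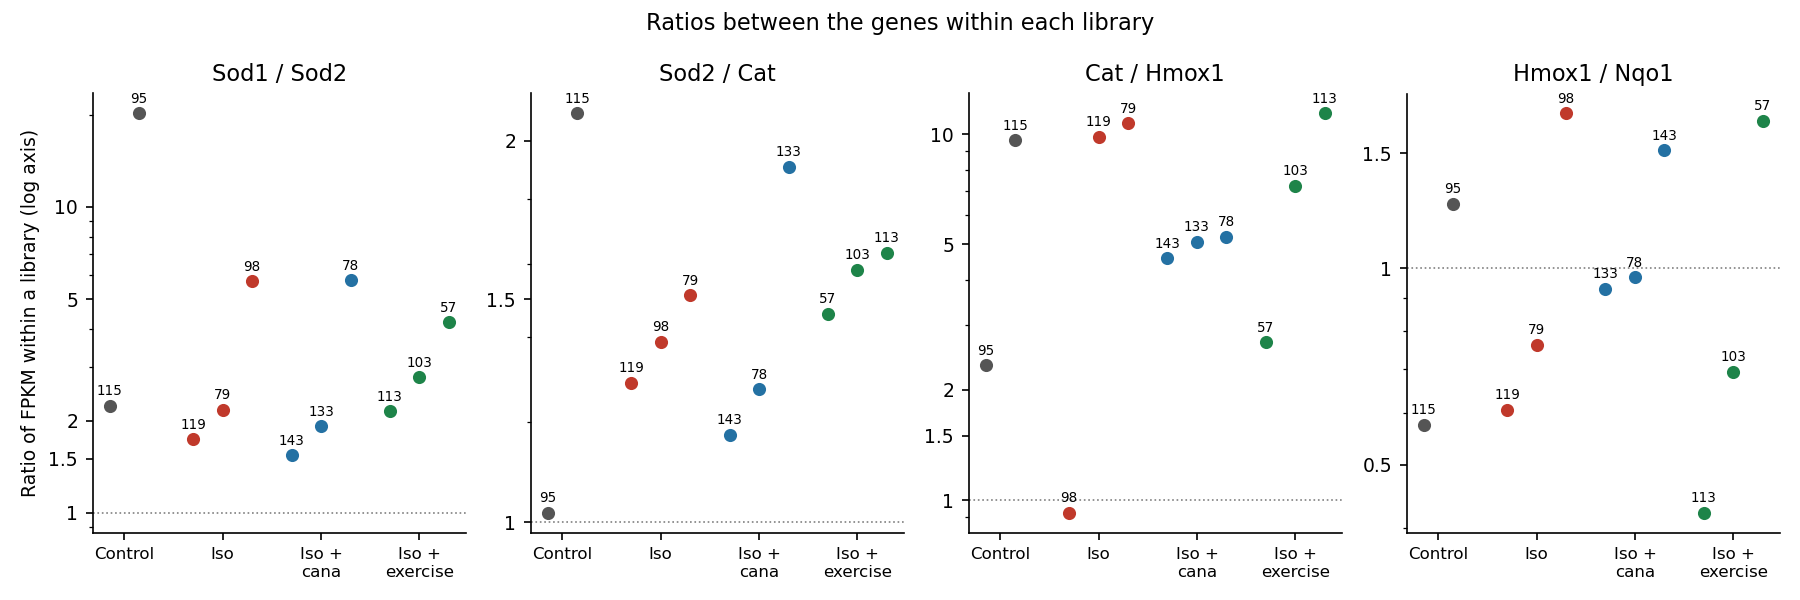
Ratio of the FPKM of 2 genes within each library (log axis, dotted line at 1), by group, where a point is a library. Sod1 over Sod2 lies between 1.54 and 2.77 in 7 libraries and between 4.20 and 20.2 in libraries 57, 78, 95 and 98.

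Ratios within a library do not depend on how libraries are scaled. The ratio of Sod1 to Sod2 FPKM was 2.24 and 20.2 in control libraries 115 and 95. It was 2.17, 5.71 and 1.74 in isoproterenol libraries 79, 98 and 119. It was 5.77, 1.92 and 1.54 in canagliflozin libraries 78, 133 and 143, and 2.77, 2.15 and 4.20 in exercise libraries 103, 113 and 57. The RNA of the cytosolic form thus outweighed that of the mitochondrial form most in the 4 libraries that stood apart, 1 in each group. In the other 7 libraries the ratio stayed between 1.54 and 2.77 in every group. Such a ratio still carries each library's length trend, since the gene model is 656 bases for Sod1 and 2063 for Sod2. With that trend removed, library 95 was at 8.75 log2 CPM for Sod1 and 6.95 for Sod2, against 9.41 and 6.73 before. Sod1 was still above Sod2 in log2 CPM in the 4 libraries and below it in the other 7. How many other pairs of genes split this way was not tested. The ratio of Sod2 to Cat varied less, from 1.02 to 2.10 over all libraries.

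The biological coefficient of variation estimated by edgeR, within groups, was 0.537 for Hmox1, 0.463 for Sod2, 0.405 for Sod1, 0.365 for Cat and 0.327 for Nqo1, against a median of 0.393 over all tested genes. Hmox1, an inducible gene, had the highest of the 5 values and Nqo1, the other inducible gene, the lowest. Without isoproterenol library 98 the value of Hmox1 was 0.346, below Sod2 (0.439) and Sod1 (0.407), while Nqo1 was again lowest (0.272). The range over libraries in log2 CPM was at percentile 72.3 of tested genes for Sod1, 65.6 for Hmox1, 50.8 for Sod2, 37.4 for Nqo1 and 24.1 for Cat.

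Isoproterenol was compared with control to ask what the model of heart failure changed. None of the 5 genes passed. The edgeR quasi-likelihood test called 0 of 5 at an adjusted p under 0.05, where it called 0% of all tested genes, and 1 of 5, Sod1, was at an unadjusted p under 0.05, beside 5.21% of all genes. DESeq2 gave an adjusted p to 1619 genes, not to Hmox1 and Nqo1, and called 0 of the other 3 members, beside 14 of those genes (0.865%). By limma-voom 0 of 5 members and 0 genes in all were called. Sod1 had a log2 fold change of -1.13 (SE 0.501, 95% interval -2.24 to -0.02, edgeR adjusted p = 0.84), and its groups did not overlap, as in 13.4% of all genes. Without control library 95 this fold change was -0.36, and without control library 115 it was -1.61, so its size depended on which control was kept. Hmox1 had a log2 fold change of 0.71 (SE 0.715), which turned to -0.56 without isoproterenol library 98. Nqo1 was at 0.32 (SE 0.386) and turned to -0.11 without that library. Cat was at 0.33 (SE 0.448) and Sod2 at 0.03 (SE 0.593), and without control library 95 they were at -0.04 and -0.63. The 5 genes had a median log2 fold change of 0.32, beside 0.07 over all tested genes.

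**Figure D4:**
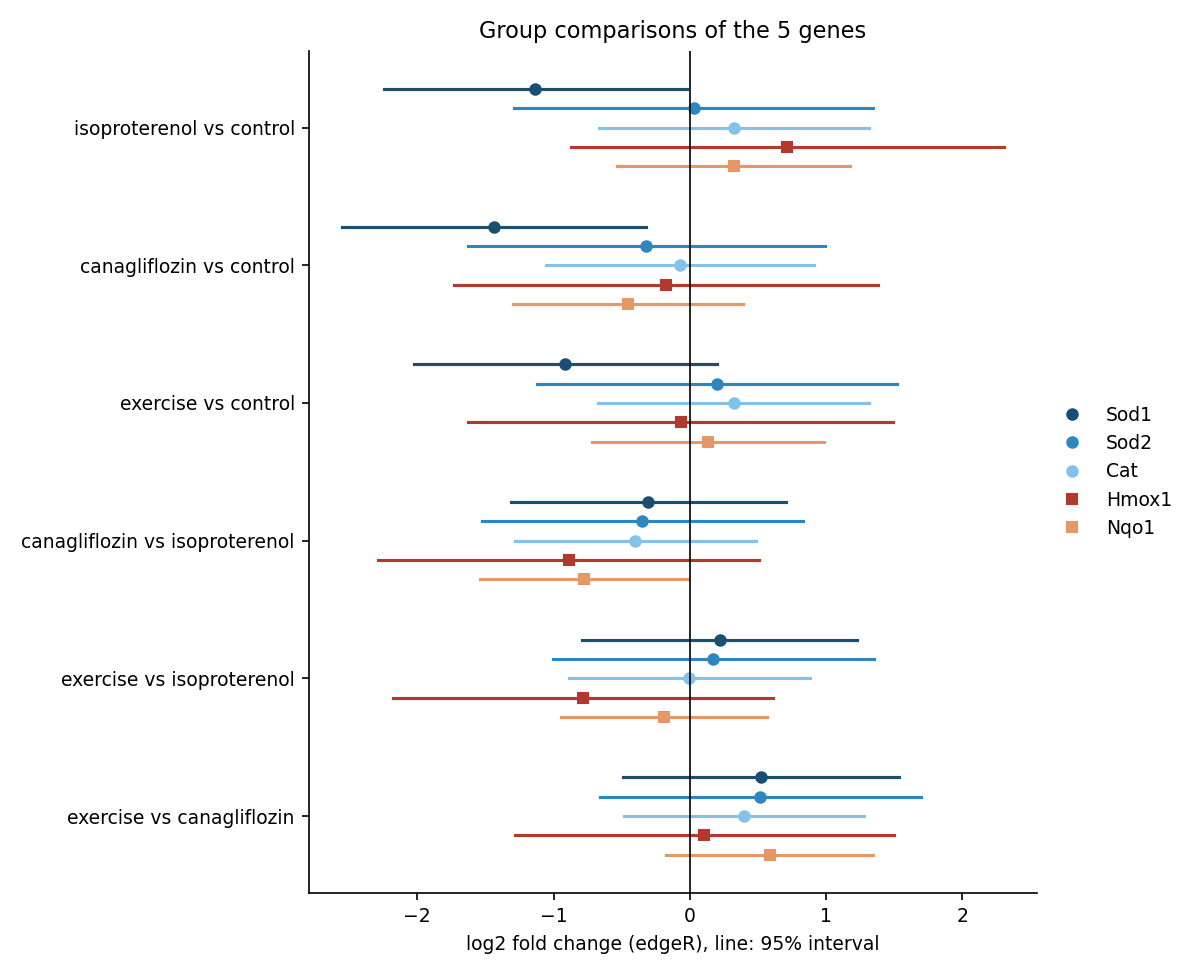
log2 fold change of each gene in the 6 comparisons of 2 groups (circles constitutive, squares inducible), with the 95% interval of the edgeR fit as a line. The intervals include 0 except for Sod1 in isoproterenol and canagliflozin against control and Nqo1 in canagliflozin against isoproterenol, and no gene passed after adjustment over all genes.

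Canagliflozin was compared with isoproterenol alone to ask what the drug changed in treated rats. All 5 point estimates were below 0, where 48.9% of all tested genes were above 0. Some of the 5 genes correlate across libraries, so their directions are not separate observations. The median of the 5 was -0.40 beside -0.01 over all tested genes, but the test called 0 of 5 (edgeR, 0% of all genes called). DESeq2 called 0 of 5, beside 2 genes in all (0.0134% of those given an adjusted p), and limma-voom called 0 of 5 and 0 genes in all. At an unadjusted p under 0.05 there was 1 of 5, Nqo1, beside 3.3% of all genes. Nqo1 had a log2 fold change of -0.78 (SE 0.343, 95% interval -1.54 to -0.02, edgeR adjusted p = 0.999), which was -0.35 without isoproterenol library 98. Hmox1 had the largest point estimate, -0.89 (SE 0.629, interval -2.29 to 0.51), and it turned to 0.38 without the same library. The constitutive genes were at -0.30 (SE 0.454) for Sod1, -0.35 (SE 0.531) for Sod2 and -0.40 (SE 0.397) for Cat. With 1 library left out, Sod1 ran from -0.78 (without 78) to 0.01 (without 143), Sod2 from -0.63 (without 98) to -0.09 (without 79) and Cat from -0.68 (without 98) to -0.22 (without 79). The interval of Cat, -1.28 to 0.48, still allows a change of 2-fold downward.

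Exercise-labelled hearts were next set against isoproterenol alone. The estimates of the constitutive genes were near 0, at 0.22 (SE 0.454) for Sod1, 0.17 (SE 0.530) for Sod2 and -0.0024 (SE 0.397) for Cat on the log2 scale. Hmox1 was at -0.78 (SE 0.628) and Nqo1 at -0.19 (SE 0.341), and without isoproterenol library 98 these were 0.49 and 0.24. By edgeR 0 of 5 genes were called (0% of all genes), and 0 of 5 had an unadjusted p under 0.05, beside 1.48% of all genes. DESeq2 and limma-voom called 0 of 5 and 0 genes in all. The 95% interval for Cat ran from -0.88 to 0.88, so the data do not show that catalase RNA was equal in these groups.

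A direct comparison of exercise with canagliflozin gave 5 of 5 point estimates above 0, beside 46.3% of all tested genes. The median log2 fold change of the 5 was 0.52, beside -0.04 over all tested genes. Some of the 5 genes correlate across libraries, so their directions are not separate observations. Nqo1 was at 0.59 (SE 0.342, interval -0.17 to 1.35), Sod1 at 0.52 (SE 0.455), Sod2 at 0.52 (SE 0.532), Cat at 0.40 (SE 0.397) and Hmox1 at 0.11 (SE 0.625). With 1 library left out, Sod1 ran from 0.21 (without 143) to 1.0 (without 78) and Cat from 0.17 (without 113) to 0.63 (without 57). Sod2 was 0.25 without 113 and 0.78 without 133 or 57, Nqo1 was 0.35 without 113, and Hmox1 ran from -0.25 (without 57) to 0.32 (without 113). None passed: edgeR called 0 of 5 (0% of all genes), 0 of 5 had an unadjusted p under 0.05 (2.42% of all genes), and limma-voom called 0 of 5 and 0 genes in all. DESeq2 called 0 of 5, beside 1 gene in all (0.00669% of those given an adjusted p). In all 5 genes the libraries of the groups overlapped, and the share of all tested genes that did so was not recorded. A single test over all 3 groups given isoproterenol called 0 of 5 by edgeR (0% of all genes), DESeq2 and limma-voom, and 0 of 5 had an unadjusted edgeR p under 0.05, beside 1.9% of all genes.

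Set against control, the canagliflozin group gave Sod1 the largest difference of any of the 5 genes in any comparison, a log2 fold change of -1.44 (SE 0.501, interval -2.55 to -0.32), which did not pass (adjusted p = 0.318 by edgeR, 0.0918 by DESeq2). It was lower in 3 of 3 canagliflozin libraries than in both controls. Without control library 95 the fold change was -0.68, and with library 95 as the only control, assumed to vary like the other groups, it was -1.92 with an edgeR adjusted p of 0.0263, in a fit that called 3900 of all genes. By edgeR 0 of 5 genes were called (0% of all genes), 1 of 5 had an unadjusted p under 0.05 (14.4% of all genes), and limma-voom called 0 of 5 and 0 genes in all. DESeq2 called 0 of 5, beside 240 genes in all (1.67% of those given an adjusted p). In CPM the groups did not overlap for 2 of 5 genes, Sod1 and Nqo1, beside 26.3% of all genes. Nqo1 was at -0.46 (SE 0.380), Sod2 at -0.32 (SE 0.589), Hmox1 at -0.17 (SE 0.699) and Cat at -0.07 (SE 0.443).

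For exercise against control, Sod1 had a log2 fold change of -0.91 (SE 0.501, edgeR adjusted p = 0.852), which was -0.14 without control library 95. Its groups did not overlap, as in 17.4% of all genes. Cat was at 0.32 (SE 0.447), Sod2 at 0.20 (SE 0.596), Nqo1 at 0.13 (SE 0.384) and Hmox1 at -0.07 (SE 0.701). The test called 0 of 5 genes (edgeR, 0% of all genes), 0 of 5 had an unadjusted p under 0.05 (4.85% of all genes), and limma-voom called 0 of 5 and 0 genes in all. DESeq2 gave an adjusted p to 748 genes, 3 of them members, and called 0 of these 3 beside 17 of the 748 (2.27%). The 3 comparisons with control share the same 2 control libraries, so their Sod1 values are not separate evidence.

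**Figure D5:**
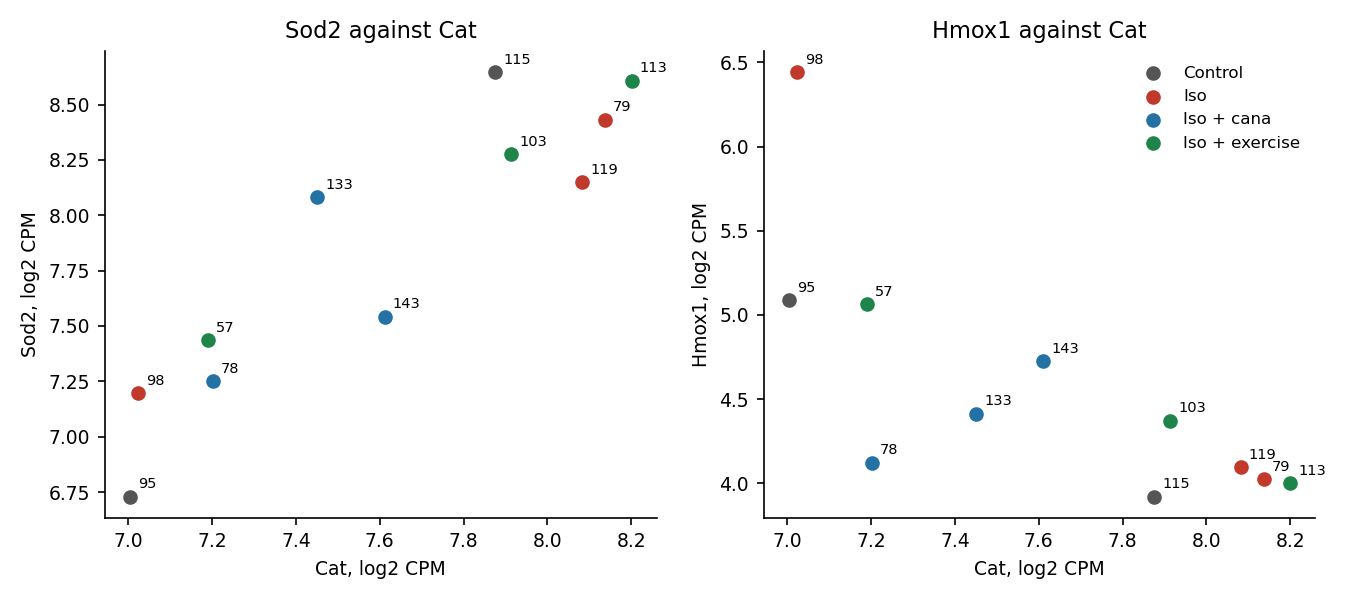
log2 CPM of Sod2 (left) and Hmox1 (right) against log2 CPM of Cat, where each point is a library with its number, coloured by group. Sod2 is high where Cat is high (r = 0.906) and Hmox1 is low there (r = -0.729), with libraries of every group along both trends.

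Whether the enzymes vary together was asked across the 11 libraries, over the 10 pairs of genes. Pearson's r of log2 CPM passed in 3 pairs after Benjamini-Hochberg adjustment over the 10. How often pairs among all tested genes would pass was not tested. High values were common, since 306 genes had r above 0.9 with Sod2 and 250 with Cat. Sod2 and Cat were positively correlated, with r = 0.906 (permutation p = 0.00042, adjusted 0.0042) and Spearman's rho = 0.882 (permutation p = 0.00069, adjusted 0.00345). Without libraries 95 and 98, the 2 farthest from the median of Sod2, r was 0.853 (exact permutation p = 0.00597). Cat and Hmox1 were negatively correlated, with r = -0.729 (permutation p = 0.00357, adjusted 0.0178) and rho = -0.827 (permutation p = 0.00293, adjusted 0.00977), and r was -0.703 without libraries 95 and 113 (exact permutation p = 0.0129). Sod2 and Hmox1 gave r = -0.686 (permutation p = 0.0118, adjusted 0.0393) and rho = -0.882 (permutation p = 0.00069, adjusted 0.00345). Without libraries 95 and 98 its r was -0.657 (exact permutation p = 0.0519).

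Within label numbers of 100 and above, 6 libraries, r was 0.614 for Sod2 and Cat, -0.706 for Cat and Hmox1 and -0.916 for Sod2 and Hmox1. Of the pairs that did not pass over all 11 libraries, only Sod1 and Cat (0.535) had a weaker r there than Sod2 and Cat. Sod1 and Sod2 were at 0.943 and Sod2 and Nqo1 at 0.832. The 5 libraries below 100 are too few for a value. Leaving out each library in turn, Sod2 and Cat passed in 11 of 11 fits, Cat and Hmox1 in 8 of 11 (not without 79, 119 or 113) and Sod2 and Hmox1 in 3 of 11 (only without 95, 98 or 78). With levels centred on the group means and permuted within groups, r was 0.902 for Sod2 and Cat, -0.872 for Cat and Hmox1 and -0.773 for Sod2 and Hmox1, and 0 pairs passed (smallest adjusted exact permutation p = 0.0926). The libraries that were low in Sod2 and Cat were those that stood apart over all genes. Among the other 7, r was 0.636 for Sod2 and Cat (exact permutation p = 0.125, adjusted 0.179). There it was -0.737 for Cat and Hmox1 (exact permutation p = 0.0593, adjusted 0.14) and -0.918 for Sod2 and Hmox1 (exact permutation p = 0.00516, adjusted 0.0258). The 7 libraries were chosen with the data in view, so these p-values describe that subset and are not a separate test. How far the difference of the 4 libraries makes up the correlations over all 11 was not tested further. The 2 inducible genes gave r = 0.452 (permutation p = 0.165, adjusted 0.411) and rho = -0.00909 (permutation p = 0.989, adjusted 0.989), and without libraries 95 and 98 r was -0.493 (exact permutation p = 0.181), so the sign of their relation depended on those libraries. No pair with Sod1 passed over the 11 libraries (r from -0.327 to 0.331, adjusted permutation p from 0.546 to 0.731).

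By Pearson's r of log2 CPM over the 11 libraries, the gene most like Sod1 was ENSRNOG00000046002 (r = 0.992), and 350 genes had r above 0.9 with it. For Sod2 it was ENSRNOG00000048164 (r = 0.986, 306 genes above 0.9) and for Cat ENSRNOG00000058316 (r = 0.973, 250 genes above 0.9). For the inducible genes, 11 genes were above 0.9 for Hmox1, led by ENSRNOG00000016581 (r = 0.955), and 1 for Nqo1, ENSRNOG00000014429 (r = 0.926). Without control library 95 the nearest gene was another for Sod1 (ENSRNOG00000018007, r = 0.985), Sod2 (ENSRNOG00000011096, r = 0.989), Cat (ENSRNOG00000007925, r = 0.977) and Hmox1 (ENSRNOG00000048226, r = 0.982), and the same for Nqo1 (r = 0.956). The number of genes above 0.9 was then 171 for Sod1, 351 for Sod2, 357 for Cat, 56 for Hmox1 and 8 for Nqo1, so these counts moved with that 1 library. These IDs could not be matched to symbols, and the values describe likeness over 11 or 10 libraries that share the differences of depth and composition given above.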

How the data were processed

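RNA-seq libraries of rat cardiac tissue were aligned, per the submitters' processing notes, with TopHat2 2.0.6 after CASAVA 1.8. Which program counted the reads, whether it used strand, and on which build and annotation, is not given in the sources used here. Reads shared by overlapping genes or near-identical copies may thus be split in an unknown way. Per the file headers, the deposited table holds read counts beside FPKM for every library. Gene model lengths came from the ratio of the 2. Deposited FPKM served for lengths and for levels between genes within a library. Of the 32883 IDs, 12047 were at 0 in every library. No 2 libraries of a group were alike within sampling noise (chi-square over degrees of freedom, 25.3 to 311).

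Counts as deposited by the authors were tested in R 4.3.3 with edgeR 4.0.16, using TMM factors, filterByExpr and a quasi-likelihood fit of the 4 group means over all 11 libraries, and Benjamini-Hochberg adjustment over 14979 genes at 0.05. The same genes were also tested with limma-voom (limma 3.58.1) and DESeq2 1.42.0. Standard errors came from the fold change and its F statistic, and intervals cover 95%. CPM are counts per 1000000 of TMM-scaled library size, and log2 CPM used a prior count of 2. Correlations used 100000 resamples, or all assignments below 10 libraries. Counts carry no molecular identifiers, so depth bounds counting error only. The edgeR fit was first run on simulated data with known changes. The spread set there was smaller than in these data, so that run does not show which changes could be found here. Figures were drawn with matplotlib 3.10.9.

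The named genes are the 5 members and, for each, the tested gene with the highest Pearson r with all libraries and without control library 95. Members and lists were chosen with earlier results of these data known. Lists of other antioxidant genes and of cell type markers, set by symbol, were not analysed, because 0 IDs matched. Alternatives were other scalings, filters and tests, a length offset, fits of the compared groups alone and leaving out each library. Those added after seeing the data were label number below 100 as a covariate, the 7 libraries on 1 side of the first principal component, correlations without the length trend, the coefficient of variation with each library left out, and the motif search.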

Additional observations from a re-analysis of the deposited data

How the results depend on the processing

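Of the alternatives run, 1 changed a member's call in a comparison of groups. This change came without control library 115, for Sod1 in canagliflozin against control, where the log2 fold change was -1.92. Control was then library 95 alone, which stood apart over all genes. A group difference and that library's own difference cannot be told apart there, so the change in call is not a result about Sod1. The 3 correlated pairs became 1 with library totals alone and 0 with levels centred on the group mean, and ran from 1 to 3 with a library left out. Of 330 fold changes refitted under other settings, 300 kept their sign and 30 turned, all without a call, and of 330 refitted without a library 299 kept sign and call, 30 turned and 1 was newly called. The cause of each turn was not tested. No paired analysis was possible because the groups share no library number. With 2 control libraries, of which 1 stood apart, comparisons with control were the least certain.

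The turned log2 fold changes were as follows. With RLE size factors it was 0.0031 for Cat in exercise vs isoproterenol. With upper-quartile factors it was 0.0037 for Cat in exercise vs isoproterenol. With library totals alone it was 0.075 for Cat in exercise vs isoproterenol, -0.048 for Hmox1 in exercise vs canagliflozin, 0.31 for Cat in canagliflozin vs control, 0.50 for Hmox1 in canagliflozin vs control, 0.043 for Nqo1 in canagliflozin vs control and 0.45 for Hmox1 in exercise vs control. With a minimum of 10 counts in every library it was 0.0037 for Cat in exercise vs isoproterenol. With DESeq2 it was 0.0031 for Cat in exercise vs isoproterenol. With limma-voom it was 0.012 for Cat in exercise vs isoproterenol, 0.015 for Sod2 in canagliflozin vs control, 0.021 for Cat in canagliflozin vs control, 0.0017 for Hmox1 in canagliflozin vs control and 0.056 for Hmox1 in exercise vs control. With the length offset it was -0.036 for Sod2 in isoproterenol vs control and -0.021 for Hmox1 in exercise vs canagliflozin. With label number below 100 as a covariate it was -0.22 for Sod2 in exercise vs isoproterenol, -0.046 for Hmox1 in exercise vs canagliflozin, 0.15 for Hmox1 in canagliflozin vs control and 0.11 for Hmox1 in exercise vs control. With the 7 libraries that did not stand apart it was -0.34 for Sod2 in isoproterenol vs control, -0.083 for Nqo1 in isoproterenol vs control, 0.51 for Hmox1 in canagliflozin vs isoproterenol, 0.13 for Hmox1 in exercise vs isoproterenol, 0.46 for Nqo1 in exercise vs isoproterenol, -0.37 for Hmox1 in exercise vs canagliflozin, 0.65 for Hmox1 in canagliflozin vs control, -0.19 for Sod2 in exercise vs control and 0.28 for Hmox1 in exercise vs control.

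With 1 library left out, the fold changes that turned in some fit ran from -0.45 to 0.44 for Cat in canagliflozin vs control, from -0.038 to 0.84 for Cat in exercise vs control, from -0.28 to 0.23 for Cat in exercise vs isoproterenol, from -0.039 to 0.84 for Cat in isoproterenol vs control, from -0.63 to 0.52 for Hmox1 in canagliflozin vs control, from -1.26 to 0.38 for Hmox1 in canagliflozin vs isoproterenol, from -0.25 to 0.32 for Hmox1 in exercise vs canagliflozin, from -0.53 to 0.64 for Hmox1 in exercise vs control, from -1.13 to 0.49 for Hmox1 in exercise vs isoproterenol, from -0.56 to 1.43 for Hmox1 in isoproterenol vs control, from -0.10 to 0.34 for Nqo1 in exercise vs control, from -0.42 to 0.24 for Nqo1 in exercise vs isoproterenol, from -0.11 to 0.56 for Nqo1 in isoproterenol vs control, from -0.78 to 0.011 for Sod1 in canagliflozin vs isoproterenol, from -0.98 to 0.95 for Sod2 in canagliflozin vs control, from -0.45 to 1.47 for Sod2 in exercise vs control, from -0.11 to 0.44 for Sod2 in exercise vs isoproterenol and from -0.63 to 1.30 for Sod2 in isoproterenol vs control.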

Other observations

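Among the 7 libraries that did not stand apart over all genes, the relation between the dismutases was not the one seen over all 11. There Sod1 and Sod2 gave r = 0.945 (exact permutation p = 0.00377, adjusted 0.0258 over the 10 pairs), where all 11 libraries gave r = -0.301 (permutation p = 0.382, adjusted 0.546). Sod2 and Hmox1 gave r = -0.918 (exact permutation p = 0.00516, adjusted 0.0258), and Sod2 and Cat gave r = 0.636 (exact permutation p = 0.125, adjusted 0.179). In the same 7 libraries Sod1 ran from 91.2 to 286 CPM and Hmox1 from 15.0 to 26.3 CPM. The choice of these 7 libraries was made with the data in view, and their split rests on all tested genes, these 5 among them.

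With those 7 libraries alone, the log2 fold change of Sod1 was 1.08 (SE 0.313) for exercise against canagliflozin, where all 11 libraries gave 0.52. It did not pass, and Nqo1, Cat and Sod2 had an adjusted p close to its own. Canagliflozin libraries 133 and 143 had the highest correlations of level with gene length (0.283 and 0.388), and Sod1 has the shortest gene model. With that trend removed, Sod1 was at 7.59 and 6.96 log2 CPM in them, against 7.37 and 6.51 before. In exercise libraries 103 and 113 it was at 8.01 and 8.08, against 8.09 and 8.06. The part of the length trend in this fold change was not tested. The log2 fold change of Hmox1 for canagliflozin against control was 0.65 with those 7 libraries, where all 11 gave -0.17. It did not pass either. Control is then library 115 alone, which is assumed to vary like the other groups.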
